A study of Mus musculus with 4 samples.

Results

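The growth arrest genes Gadd45a, Gadd45b, Gadd45g, Btg1, Btg2 and Cdkn1a were followed in mouse hippocampal CA1 tissue after foot shock. They were taken as every probe set whose only annotated gene symbol was 1 of these 6, which gave 8 probe sets, 2 each for Gadd45b and Cdkn1a and 1 for each other gene, of 10833 probe sets with 1 symbol and 8251 genes. A probe set pools several short oligonucleotides designed against the same transcript. Young male C57BL/6J mice stayed in a chamber that was new to them and received 3 shocks of 0.5 mA lasting 1 s each, at intervals of 2 min, and tissue for total RNA came from 1, 2, 4 or 6 h past the final shock. The labels describe the condition as shock alone, with entry into the context 2 h before training and 1 h in the chamber afterwards. The labels thus give all 4 samples the same treatment and separate them only by time. Each time has 1 array, the number of animals in a sample is not given in the labels, and animals without shock were not analysed here. Every value is therefore set against other times, not against a baseline, differences between single arrays have no replicate check, and the number of arrays limits their precision.

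These genes are known as brakes on growth that cells switch on under stress or stimulation. The 3 GADD45 proteins are small partners of other proteins that activate stress kinase cascades and take part in DNA repair and demethylation, and Gadd45b is induced by neuronal activity in the hippocampus. BTG1 and BTG2 bind the deadenylases that shorten messenger RNA tails and curb proliferation, and Btg2 is an early response gene in neurons. Cdkn1a encodes p21, the inhibitor of cyclin-dependent kinases that p53 and glucocorticoids can induce, and which is also made in cells that no longer divide.

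The stretches just before the transcription start sites of the 3 genes that were highest at 2 h are shown because these genes had that order in common, and the elements found in them differ. Each is 250 bases long, from RefSeq on the GRCm38.p6 build, read 5′ to 3′ on the gene's own strand, with matches in capitals on either strand to TGACGTCA (the cyclic AMP response element), its shorter core TGACG, the box CCAAT, the E-box CACGTG, the element TATAAA and the p53 response element. The p53 element was searched as 2 adjoining 10-base repeats with intact cores and at most 1 other base off the consensus, a rule set after the Cdkn1a sequence had been seen. Btg2 lies at chr1:134079156-134079405 on the minus strand, Gadd45b at chr10:80929841-80930090 on the plus strand, and Cdkn1a has 2 start sites, with windows at chr17:29090729-29090978 and chr17:29093519-29093768, both on the plus strand.
Btg2: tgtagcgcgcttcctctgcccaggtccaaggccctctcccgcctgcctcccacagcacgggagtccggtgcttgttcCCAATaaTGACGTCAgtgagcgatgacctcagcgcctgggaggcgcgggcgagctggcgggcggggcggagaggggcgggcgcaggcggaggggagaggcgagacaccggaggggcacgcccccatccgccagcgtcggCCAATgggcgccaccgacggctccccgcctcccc
Gadd45b: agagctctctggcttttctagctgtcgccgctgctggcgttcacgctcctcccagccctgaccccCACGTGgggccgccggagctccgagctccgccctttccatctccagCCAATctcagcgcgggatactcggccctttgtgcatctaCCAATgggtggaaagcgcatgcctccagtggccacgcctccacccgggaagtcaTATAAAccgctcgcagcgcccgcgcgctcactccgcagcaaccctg
Cdkn1a, upstream start: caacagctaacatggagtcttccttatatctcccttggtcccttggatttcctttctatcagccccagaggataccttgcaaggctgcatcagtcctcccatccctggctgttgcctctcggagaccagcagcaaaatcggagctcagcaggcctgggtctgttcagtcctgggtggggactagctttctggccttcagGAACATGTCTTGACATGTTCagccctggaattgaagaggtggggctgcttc
Cdkn1a, downstream start: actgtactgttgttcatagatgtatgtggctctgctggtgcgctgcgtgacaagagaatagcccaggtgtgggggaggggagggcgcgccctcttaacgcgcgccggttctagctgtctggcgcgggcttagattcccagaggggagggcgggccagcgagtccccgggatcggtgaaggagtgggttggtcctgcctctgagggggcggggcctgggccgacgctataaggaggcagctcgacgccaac

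The full TGACGTCA stood in the Btg2 window, its left end 166 bases before the start site, and in none of the other members' windows. Of 32851 such windows in the RefSeq table, 1.55% held it, and 17.8% held the shorter TGACG, of which Btg1 had 2 matches. The upstream window of Cdkn1a held the p53 element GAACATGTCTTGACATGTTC, 51 bases before that start site, which 0.0457% of windows matched. CACGTG was found before Gadd45b and Gadd45g, against 6.02% of windows, and TATAAA before Gadd45b, Gadd45g and Btg1, against 12.4%. The downstream window of Cdkn1a held none of the elements in capitals. CCAAT occurred before each member except Cdkn1a, and in 33.8% of windows. GGGCGG, a GC box left in lower case, had matches before Btg2, Gadd45a, Gadd45b, Btg1 and the downstream start of Cdkn1a, and in 32.7% of windows. TGANTCA and GCGTGGGCG, which AP-1 and Egr factors are known to bind, and the full glucocorticoid response palindrome were searched too and had no match before the members, against 6.75%, 0.536% and 0.00913% of windows. A match describes these letters only, and the shorter core lies inside the full cyclic AMP element. No binding was measured.

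Cdkn1a had the widest course of the 6 genes. The intensity of its probe set 98067_at was 407 (1 h), 482 (2 h), 270 (4 h) and 137 (6 h), on a linear scale on which each array was brought to the same trimmed mean. The second, 94881_at, read 343, 347, 242 and 181 at the same times. On both, the values at 1 h and 2 h lay above those at 4 h and 6 h. The share of all probe sets with this order was not counted. Both probe sets were read on the same 4 arrays, so the second is not a replicate. At 6 h over 1 h the first stood 2.96-fold lower and the second 1.89-fold lower, log2 differences of −1.57 and −0.92. Both later steps contributed, with 98067_at lower by 1.79-fold in the step from 2 h to 4 h and by 1.97-fold in that from 4 h to 6 h, and 94881_at by 1.44-fold and 1.33-fold.

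**Figure D1:**
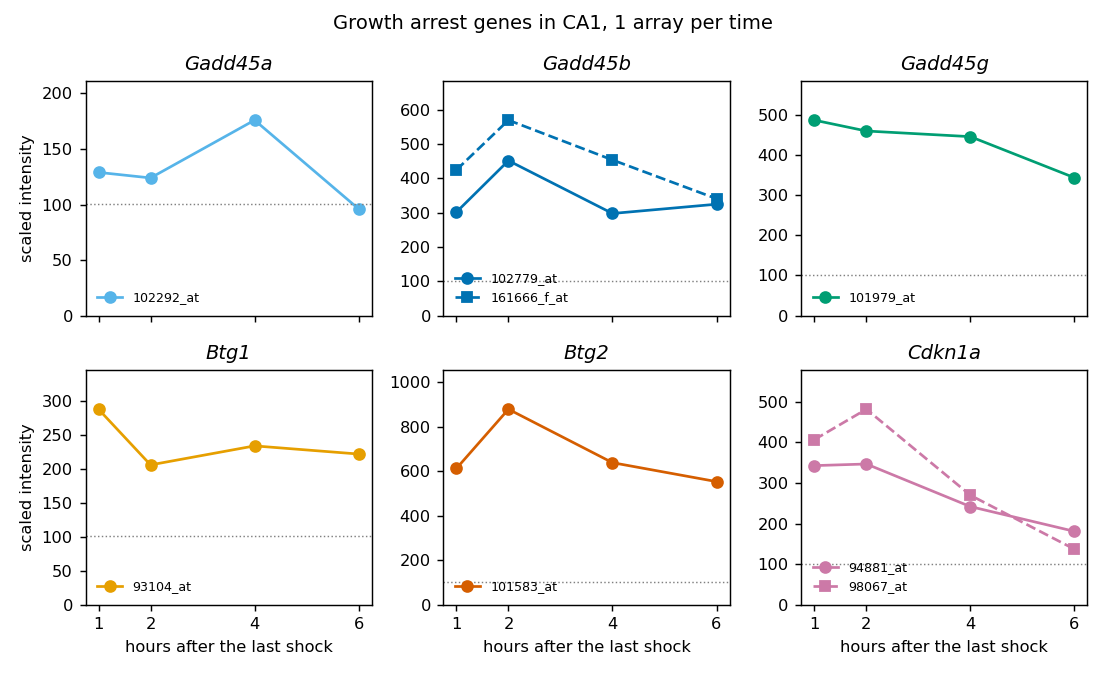
Scaled intensity (linear axis from 0) of each member probe set against hours after the last shock, 1 point per array, with no error bars because each time has 1 array. The dotted line is the floor of 100.8. Both probe sets of Cdkn1a were lower at each step after 2 h, Btg2 and Gadd45b were highest at 2 h, and Gadd45a was below the floor at 6 h.

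The difference of Cdkn1a between 6 h and 1 h lay at the edge of what single probe sets showed. Among 2007 probe sets within 1.5-fold of 98067_at in mean brightness, 6 (0.299%) were as low or lower at 6 h over 1 h, itself included, and the robust SD of their log2 differences was 0.38. For 94881_at the share was 3.11% of 1994. Agreement between the probe sets of a gene was not usual at this size: of 640 genes with 2 probe sets above the floor on all arrays, 61 had at least 1 with a 1.5-fold lower value at 6 h over 1 h, and in 4 of these both were, namely Cdkn1a, Bnip2, Nr4a2 and Smg5, the last 3 named after their values were seen. In 41 of the 61 both were at least lower in sign.

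A linear slope over the hours, fitted with limma to all 7242 probe sets whose mean lay above the floor, was the test that 1 array per time allowed without pooling times. For Cdkn1a the slope of log2 intensity was −0.34 ± 0.07 per hour (SE, 4 arrays) on 98067_at and −0.20 ± 0.06 on 94881_at, with limma adjusted p = 0.64 and 0.75 after Benjamini-Hochberg adjustment. Neither passed the 0.05 threshold. No member passed, and neither did any other probe set, 0.0% of those tested. Without adjustment, 2 of the 8 member probe sets, both of Cdkn1a, had a limma p under 0.05, against 6.48% of all probe sets, and 98067_at ranked 10 by p among the 7242. The residual of this fit holds departures from a straight line as well as error.

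**Figure D2:**
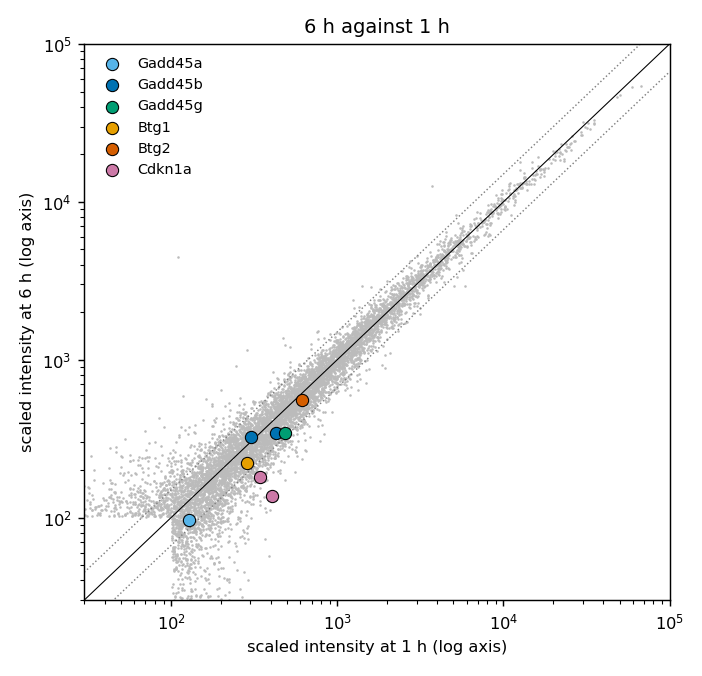
Scaled intensity at 6 h against 1 h for all probe sets above the floor on at least 1 of the 2 arrays (grey) and the 8 member probe sets (coloured by gene), both axes logarithmic. The solid line marks equal values, the dotted lines 1.5-fold, and the dimmest probe sets lie outside the axes. Both Cdkn1a points lie below the lower dotted line, at 137 and 181 on the 6 h axis, and Gadd45b has a point on either side of equality.

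Btg2, the antiproliferative member known as an early response gene, was highest at 2 h. Its intensity was 612 (1 h), 878 (2 h), 638 (4 h) and 553 (6 h), so that 1 array stood above the other 3. The 1 h and 6 h values differed by 1.11-fold. The log2 difference at 2 h over 1 h was 0.52, under the 1.5-fold limit of 0.585, and 59 of 1770 probe sets of like brightness (3.33%) were as high or higher. At 4 h over 2 h it was −0.46, with 6.67% as low or lower. Btg1, the other BTG protein measured, had a different order, at 288, 206, 234 and 222. It was 1.40-fold lower on the second array, and all 3 later arrays lay below the first. Its slope was −0.04 ± 0.07 per hour (limma adjusted p = 0.94), and that of Btg2 −0.07 ± 0.06 (limma adjusted p = 0.87).

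Gadd45b was also highest at 2 h, on both of its probe sets. The probe set 102779_at read 302, 452, 298 and 325, and 161666_f_at, whose suffix marks oligonucleotides shared within a sequence family, read 425, 570, 454 and 341. The first stood higher at 2 h by 0.583 in log2, just under the limit of 0.585, and the second by 0.43. They parted later: at 6 h over 1 h the log2 difference was 0.11 on the first and −0.32 on the second, so no direction over the whole span holds for this gene. From 2 h to 4 h the value was lower by 1.52-fold on 102779_at and 1.26-fold on 161666_f_at, and the first no longer reached 1.5-fold after scaling to a common median, at −0.51.

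Gadd45g, the family member known for roles in differentiation, was highest at 1 h and lower at each later time, at 486, 459, 445 and 343, although scaling to a common median turned its log2 difference at 4 h over 2 h from −0.05 to 0.05. Most of its span lay in the last step, 1.30-fold from 4 h to 6 h, and at 6 h over 1 h it stood 1.42-fold lower, with 8.63% of 1946 probe sets of like brightness as low or lower. Gadd45a, a p53 target in other tissues, lay near the floor, at 129, 124, 176 and 96.1, the last below the floor of 100.8. It was highest at 4 h, and from there at least 1.74-fold lower at 6 h, a bound because of the floor. The slopes were −0.09 ± 0.05 and −0.04 ± 0.09 per hour (limma adjusted p = 0.80 and 0.96).

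**Figure D3:**
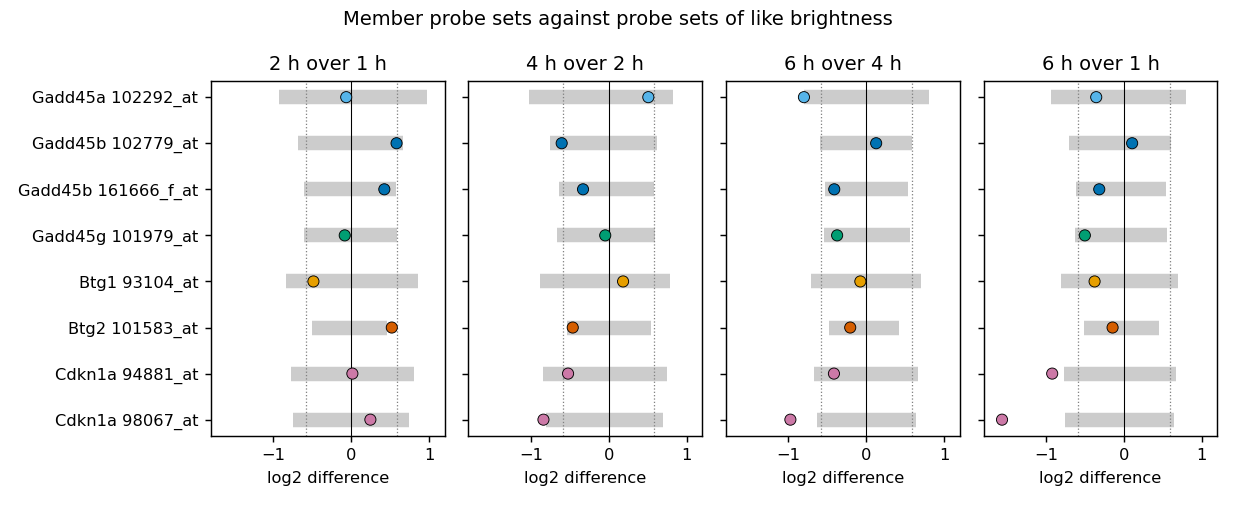
Log2 difference of each member probe set (points, coloured by gene) in 4 comparisons of times, with grey bars for the middle 90% of probe sets within 1.5-fold of it in mean brightness and dotted lines at 1.5-fold. Cdkn1a 98067_at lies below its bar from 2 h to 4 h, from 4 h to 6 h and over the whole span, 94881_at over the whole span, Gadd45a at the lower end of its bar from 4 h to 6 h, and Btg2 above its bar at 2 h over 1 h.

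By the limit of 1.5-fold, with values below the floor set to it, no member probe set differed between 1 h and 2 h, where 7.37% of all 8233 compared were higher at 2 h and 6.3% lower. At 4 h over 2 h, 2 of 8 were lower (Gadd45b 102779_at and Cdkn1a 98067_at) and 0 higher, against 8.77% and 5.61% of all. At 6 h over 4 h, 2 of 8 were lower (Gadd45a and Cdkn1a 98067_at) and 0 higher, against 5.44% and 5.03%. At 6 h over 1 h, 2 of 8 were lower, both of Cdkn1a, and 0 higher, against 7.35% and 4.69%. In sign alone, 7 of 8 were below their 1 h value at 6 h. Taken by the brightest probe set, 6 of 6 genes were lower, with a median log2 difference of −0.37. The median of all probe sets was −0.02 and 52.3% were lower. Gadd45b counts as lower here only by its family probe set 161666_f_at (−0.32), while its 102779_at was higher (0.11).

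Of the 7 member probe sets above the floor on every array, 5 were highest at 2 h (Btg2 and both of Gadd45b and Cdkn1a), against 28.7% of 6442. After scaling to a common median 4 were, since Cdkn1a 94881_at, at 343 and 347 in the main scaling, then stood higher at 1 h, against 18.9% of all. Lowest at 6 h were 5 of 7 (Btg2, Gadd45g, Gadd45b 161666_f_at and both of Cdkn1a), against 26.2% (18% with a common median), and 4 of 7 were both, against 10.9%. Gadd45b and Cdkn1a enter these counts by both of their probe sets, read on the same arrays, so the 7 are not separate genes. With the probe sets of each gene averaged, 3 of 5 genes were highest at 2 h, against 29.0% of all genes. Lowest at 6 h were 4 of 5, against 26.1%. It was on the 2 h array, too, that the controls had the highest ratio of 3′ to 5′ actin control probe sets, 2.70 against 1.74 to 1.84, and of Gapdh, 4.82 against 3.24 to 3.98, with spike-in transcripts at 1.16 relative to 1 h. At 6 h the spike-ins were at 0.87. The part of these in the order of the members was not tested.

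Other tissue also differed between arrays. The 9 choroid plexus and ependymal markers on the array summed to 2357, 1959, 2510 and 8507 units from 1 to 6 h. Ttr (transthyretin) was at 4482 at 6 h against 89.9 to 198. Of the 9, 4 (Folr1, Aqp1, Slc4a5 and Cldn2) had means below the floor, and Folr1 among them read 98.4, 58.7, 37.6 and 255. Of the 5 with a mean above the floor, 4 were higher at 6 h over 1 h and 1 was lower. Past 1.5-fold higher were 3 of them, against 4.6% of all probe sets. The 12 endothelial and mural markers, a cell class that can express Cdkn1a, summed to 2148, 1657, 1879 and 1494, with 5 of them (Pecam1, Tek, Tie1, Cdh5 and Pdgfrb) below the floor in the mean. Of the other 7, 6 were lower at 6 h over 1 h (median −0.33), where 52.3% of all probe sets were lower. Past 1.5-fold were 2 of them, against 7.24% of all. These were Vwf, which read 197, 150, 204 and 76.5, and Flt1, which read 342, 259, 276 and 214. Each had a second probe set at the floor at both times. Cldn5 read 393, 376, 401 and 320, and Kdr was the 1 that was higher, at 130, 156, 112 and 174. Of the 12 pyramidal neuron markers, 9 had a mean above the floor and Camk2a, Grin2a and Grin2b did not. At 4 h over 2 h, 2 of the 9 (Neurod6 and Wfs1) were at least 1.5-fold higher and 1 (Fezf2) lower, against 5.68% and 8.34% of all probe sets. In the limma slope test 4 of the 9 had an unadjusted p under 0.05, against 6.48% of all, and 0 passed after adjustment. At 6 h over 1 h, 5 of the 9 were lower and 4 higher, none past 1.5-fold, and the 12 summed to 40948, 42023, 40905 and 39135. Wfs1, a CA1 marker, was among the higher at 1709, 1637, 2608 and 2205, and Fezf2 among the lower at 2133, 2158, 1375 and 1579. The 10 oligodendrocyte markers summed to 27185, 27497, 28969 and 30011, and 9 of them had a mean above the floor. At 6 h over 1 h, 8 of these 9 were higher and 1 lower (median 0.08). Past 1.5-fold, 0 were higher and 1 (Mal) lower, against 4.6% and 7.24% of all probe sets. The part of these cells in the lower values of Cdkn1a was not tested. In whole tissue, fewer cells of a type and less RNA per cell cannot be told apart.

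The p53 pathway controls Cdkn1a and Gadd45a in damaged cells. Its genes were mostly higher at 2 h over 1 h and mostly lower at 4 h over 2 h. Both steps use the same 2 h array, so they are not separate observations. Of 15 genes with a mean above the floor (18 of 28 listed were on the array), 0 reached 1.5-fold in either direction between 1 h and 6 h. Of all probe sets, 7.24% were that much lower and 4.6% higher. The median log2 difference of the 15 was −0.04. At 2 h over 1 h, 11 of 15 were higher and 4 lower, with a median of 0.1. Of these, 2 (Ccng1 and Igfbp3) were at least 1.5-fold higher, against 6.82% of all probe sets, and 0 that much lower. At 4 h over 2 h, 14 of 15 were lower and 0 higher, with a median of −0.28, against −0.01 and 52.1% lower for all probe sets. In that step 0 reached 1.5-fold. At 6 h over 4 h, 7 were lower and 8 higher, with 1 (Atm) at least 1.5-fold higher, against 4.89% of all probe sets. At 2 h, the array with the actin ratio of 2.70, 9 of 15 were highest, against 29.4% of probe sets. As examples chosen after their values were seen, Ccng1, which encodes cyclin G1, read 403, 615, 411 and 396, and Phlda3, an inhibitor of Akt signalling, read 296, 394, 280 and 251. Mdm2, the ubiquitin ligase for p53, read 266, 310, 249 and 344, and was thus highest at 6 h. No gene of this list had an unadjusted limma p under 0.05 for the slope.

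Genes of the cell cycle machinery that p21 restrains differed in both directions. At 4 h over 2 h, 13 of 19 measured were lower and 6 higher (median −0.23), against 52.1% lower among all probe sets. By at least 1.5-fold, 4 were lower and 1 higher in that step, against 8.34% and 5.68% of all. Over the whole span 10 were lower and 9 higher, the median being −0.04, where 52.3% of all probe sets were lower. The 19 are those of 26 on the array with a mean above the floor. Of the rest, Ccnd2, which encodes cyclin D2, read 211, 105, 122 and 32.1, at least 2.09-fold lower at 6 h over 1 h. The others of the rest were below the floor on every array. Mcm2, a subunit of the replicative helicase, read 217, 190, 156 and 98.5, at least 2.16-fold lower at the end. Ccna2, which encodes cyclin A2, read 311, 295, 278 and 205, 1.52-fold lower, and Mcm4, another helicase subunit, read 114, 208, 113 and 182, 1.60-fold higher. None of the 19 passed the limma slope test after adjustment, and 2 of 19 had an unadjusted p under 0.05, against 6.48% of all probe sets. The other inhibitors of cyclin-dependent kinases were mostly dim, with 3 of 7 above the floor in the mean, and Cdkn2d read 1630, 1335, 1182 and 1319.

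Of the kinases that GADD45 proteins act on, 8 of 11 on the array were measured. At 2 h over 1 h 6 were lower and 2 higher (median −0.17), against 49.6% lower among all probe sets. Over the whole span 5 were lower and 3 higher (median −0.03), against 52.3% lower among all. By at least 1.5-fold, 2 (Map3k4 and Mapk12) were lower over that span and 0 higher, against 7.24% and 4.6% of all. Map3k4, the kinase that GADD45 proteins bind and activate, read 541, 328, 285 and 333, and was 1.63-fold lower at 6 h, while its second probe set was at the floor at both times. Mapk12, a p38 kinase, read 231, 191, 162 and 154. Genes of DNA demethylation and excision repair numbered 11. Over the whole span 2 were lower and 2 higher by at least 1.5-fold, against 7.24% and 4.6% of all probe sets. Xpc, a sensor of DNA damage, read 232, 163, 114 and 109, and the repair scaffold Xrcc1 read 258, 205, 119 and 144, with its second probe set at the floor at both times. In the other direction, Apex1, the abasic site endonuclease, read 667, 851, 912 and 1027, and Apobec2 read 133, 188, 128 and 230, with its other probe sets at the floor at both times.

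Of the 8 measured partners of BTG proteins, 7 were lower at 2 h over 1 h (median −0.14, against 49.6% lower among all probe sets), and 6 were higher at 4 h over 2 h, with none past 1.5-fold in either step. Over the whole span 4 were lower and 4 higher (median 0.01). Prmt1, the arginine methyltransferase that binds BTG1 and BTG2, read 846, 574, 583 and 553, and was 1.53-fold lower at 6 h. Like Btg1, it was highest at 1 h, as were 24.8% of all probe sets above the floor on every array. Tob1, a relative of the BTG proteins, was higher at the later times, at 870, 830, 1159 and 1090, although its second probe set was at the floor at 1 h and 6 h, and Btg4 was below the floor. No gene of these lists passed the limma slope test after adjustment.

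**Figure D4:**
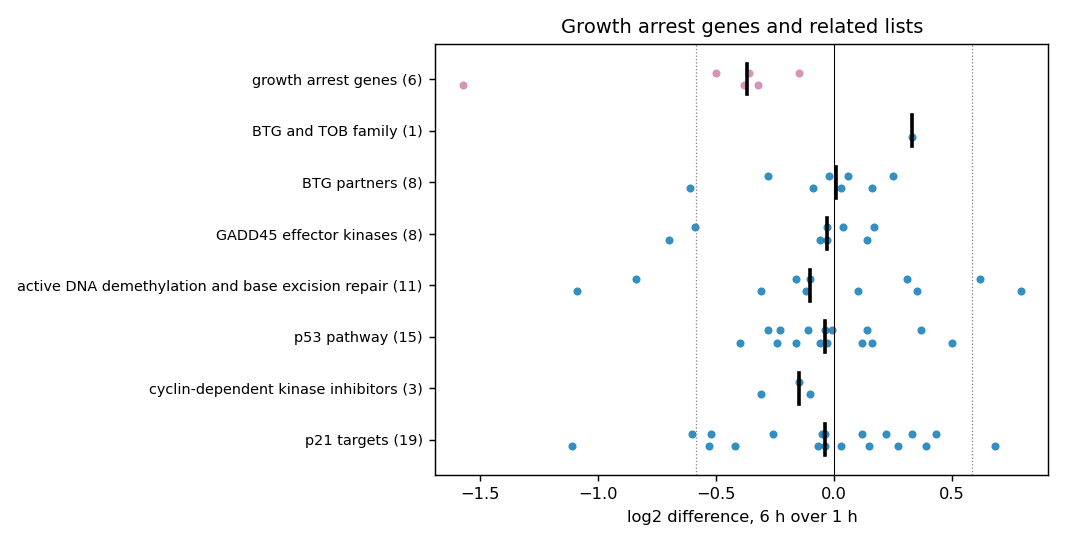
Log2 difference at 6 h over 1 h of each gene (points, brightest probe set) in the growth arrest genes and 7 related lists, with the number of genes whose mean lay above the floor in brackets, black bars at the medians and dotted lines at 1.5-fold. The median of the growth arrest genes is −0.37 with Cdkn1a at −1.57, and those of the other lists lie between −0.15 and 0.33.

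Likeness of courses was measured as the root mean square difference between log2 profiles, each centred on its own mean, over the 4 arrays and up to 1320 genes with a range of at least 1.5-fold. With 4 arrays many genes have similar profiles, and 33 lay within 0.1 of Btg2 and 40 of Gadd45b, for which the brighter 161666_f_at was used; for Cdkn1a it was 98067_at. The nearest to Btg2 were Cytip (0.019), Akap2 (0.028) and Derl2 (0.028), and Gadd45b ranked 23 at 0.081. The nearest to Gadd45b were Acp6 (0.031), Angptl4 (0.037) and Lonp1 (0.042), with Btg2 again at rank 23. For Gadd45g they were Znfx1 (0.037), Mrps22 (0.040) and Ccna2 (0.041), and for Btg1 Unc119 (0.051), Crtap (0.060) and Eya1 (0.064). Cdkn1a had no gene within 0.1. Its nearest were Ppargc1a, a metabolic coactivator that read 293, 337, 221 and 125, at 0.152, Sp4, a neuronal transcription factor, at 0.198, and Akap8 at 0.216. Gadd45b ranked 196 of 1319 candidates for it, at 0.486, and Btg2 293, at 0.533.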

How the data were processed

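Total RNA from CA1 was read on Affymetrix arrays of 12488 probe sets, 1 array per time. The deposited values are linear intensities, which the authors had already brought to a common trimmed mean of 500.3; software and detection calls: not given in the sources used here. Each array was rescaled on the trimmed mean (2% left out at each end) of the 12422 probe sets other than 66 controls, with factors of 0.999 to 1.001. Intensities below 100.8, the 40th percentile, were set to that floor for log2 differences, and printed intensities are scaled values before the floor. Folds and counts use these floored values, and 1.5-fold is the limit for a call.

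Names come from the platform's gene annotation, in which 10833 probe sets had 1 symbol, 396 several and 1193 none, and 10817 were found in RefSeq by gene identifier. A gene outside the members is shown by its brightest probe set. Slopes used limma 3.58.1 in R 4.3.3 (lmFit, eBayes with a mean-variance trend, Benjamini-Hochberg adjustment over all probe sets tested), and the other steps Python 3.11.15 with NumPy 2.4.6, pandas 2.3.3, SciPy 1.17.1 and matplotlib 3.10.9. The members and the lists were chosen with earlier results of these data known. Genes named outside the members are those of the lists past 1.5-fold at 6 h over 1 h (up to 4 a list), and the 3 nearest in profile to each member above the floor on all arrays; other genes are markers or were picked with their values in view. The alternatives were other scalings, floors, fold limits and time models, averages over the probe sets of each gene, and arrays left out.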

Additional observations from a re-analysis of the deposited data

How the results depend on the processing

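No paired analysis was possible because each time has 1 array. The slope of no member passed the adjusted threshold in limma under any of 14 other settings, where the smallest adjusted p of a member lay between 0.15 and 1.0; across all probe sets 2 passed without the 1 h array and 7 without the 4 h array, none of them a member. Slopes turned sign for Gadd45a with 1 and 2 h set against 4 and 6 h (0.076) and without the 6 h array (0.163), for Btg1 without the 1 h array (0.027), for Gadd45b 102779_at without the 2 h array (0.019) and for Gadd45b 161666_f_at without the 6 h array (0.004), and in the other 97 slopes did not. Scaling to a common median, which moved the median of all probe sets at 6 h over 2 h from -0.02 to 0.10, and quantile normalization each left 1 of 8 members lower at 4 h over 2 h (main 2) and gave 1 higher (main 0), Gadd45a at 0.61 and 0.66; of all probe sets 6.45% and 6.96% were then lower and 7.85% and 7.08% higher. Raising the floor to the 60th percentile (267.4), 0 of 5 were lower at 6 h over 4 h (1.78% of all), 1 of 7 at 6 h over 1 h (2.85%), and of 4 above that floor on all arrays 3 were highest at 2 h (26.0%) and 3 lowest at 6 h (25.0%). Averaging the probe sets of each gene gave 1 of 6 lower at 4 h over 2 h (6.64% of all genes), 1 of 6 at 6 h over 1 h (5.92%) and 3 of 5 highest at 2 h (29.0%). At the looser fold limit, of 8, 3 were higher and 1 lower at 2 h over 1 h (17.7% and 16.1% of all), 1 higher and 5 lower at 4 h over 2 h (14.9% and 20.9%), 5 lower at 6 h over 4 h (15.1%) and 5 at 6 h over 1 h (18.9%). At 2-fold, 0, 0 and 1 were lower in the last 3 comparisons (2.28%, 0.956% and 1.56% of all), the last being Cdkn1a 98067_at. Chosen after the data were seen, leaving out the family probe set of Gadd45b or single arrays gave 4 to 6 highest at 2 h and 4 to 6 lowest at 6 h (main 5 and 5), against 28.7% to 38% and 26.2% to 36.4% of all. Dim probe sets limit what can be read: Gadd45a lay near the floor throughout.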
